A study of Mus musculus with 2 samples.

Results

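Integrins are receptors of the cell surface made of one alpha and one beta chain, and they tie the cytoskeleton to the extracellular matrix or to other cells. Laminins are cross-shaped proteins of basement membranes, each built of an alpha, a beta and a gamma chain, and several integrins bind them. In skin, basal keratinocytes are anchored to the dermis by laminin and by integrins held in hemidesmosomes, muscle fibres are bound to their own basement membrane by a laminin receptor, fibroblasts grip collagen and fibronectin, and leukocytes use a family of their own to leave vessels and to hold on to other cells.

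The genes described here are all those whose symbols name an integrin alpha chain, an integrin beta chain or a laminin chain. The rule on symbols found 36 genes among the 24421 symbols listed. Of these, 35 (24 integrins and 11 laminin chains) passed a minimum of more than 3 counts in 1 of the libraries or both, as 16255 symbols did. The remaining gene, Itgad, which encodes the leukocyte alpha chain CD11d, had 0 counts in both libraries, where a count of 0 allows up to 0.212 CPM (counts scaled to the library total) in control and 0.258 CPM in stretched skin.

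Whole-layer back skin of wild type C57BL6/J mice was sequenced at 5 days, with 1 library of skin stretched by a glued device with an initial strain of 33% (stretched skin) and 1 library of skin that was not stretched (control skin). The methods describe a further increase of the strain each day. The sequencing methods do not say whether this control skin carried a device, and elsewhere in the study control mice had none. The methods describe 8-week-old female mice with hairs in telogen, the resting phase, and skin under the attached parts of the device was discarded. The number of mice behind each library is not given in the sources used here. Each library is a mixture of epidermis, hair follicles, dermis, fat and the striated muscle sheet under the skin.

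The total count was 14152379 for control and 11648655 for stretched skin. Keratinocyte genes (Krt5 with 61216 and 50601 counts), fibroblast genes (Col1a2 with 183341 and 275799) and muscle fibre genes (Acta1 with 127849 and 100096) were all abundant. The log2 fold change of a gene is the log2 of its CPM in stretched skin over its CPM in control skin. Its 95% interval is exact (Clopper-Pearson) and covers counting error only. With 1 library per condition no difference has a replicate check, no test was possible, and the intervals compare these libraries rather than the conditions. Levels of different genes were compared as FPKM, the CPM per kilobase of exon. Across the 16255 genes measured the median was -0.12, and TMM scaling (edgeR) would add 0.11 to each value.

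Among the 35 genes measured, the leukocyte integrins other than Itgae were higher in stretched skin with intervals above 0. The muscle integrin Itga7 and the fibronectin receptor chain Itga5 were nearly 2-fold higher, and the epidermal integrins and laminin chains went both ways. Of the 35 genes, 4 were at least 2-fold higher, where 6.32% of all genes were, and 1 was at least 2-fold lower, where 5.47% of all genes were. All 4 were leukocyte integrins (Itgax, Itgb7, Itgb2 and Itgam). The gene at least 2-fold lower was the epidermal integrin Itga2. The counting interval lay above 0 for 20 of the 35, against 18.1% of all genes, and below 0 for 8, against 33.5% of all genes. None of the 35 genes changed sign under any scaling tried. With the median of ratios of DESeq2, which adds 0.12 to every value, the counting interval lay above 0 for 23 and below 0 for 5. The shares of all genes were not computed with that scaling, which shifts all genes alike. At a lower threshold of 1.5-fold 9 genes were higher (12.3% of all genes) and 3 lower (14.1%), with Itgal, Itga4, Itga7, Itga5 and Itga9 added to those higher and Itgb8 and Lama5 to those lower. Where the product of both FPKM values had to be above 10, which is how the methods state their filter, 23 of the 35 passed, and of these 2 were 2-fold higher (2.94% of the 9681 genes that passed), Itgam and Itgb2, and 0 lower (2.85%). With 1 added to each FPKM value first, 25 passed and 3 were higher (2.61% of the 10908 genes that passed), with Itgb7 added, and 0 lower (2.43%). With the whole interval past 2-fold, 3 were higher (2.41% of all genes) and 0 lower (1.96%). With a minimum of 20 counts summed over the libraries all 35 passed, and 4 were higher (4.98% of the 14804 genes that passed) and 1 lower (5.02%).

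The median of the 35 was 0.23, that of the 24 integrins 0.34 and that of the 11 laminin chains 0.11. Without the leukocyte integrins the median was 0.17, and 0 of the other 28 genes were at least 2-fold higher.

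**Figure D1:**
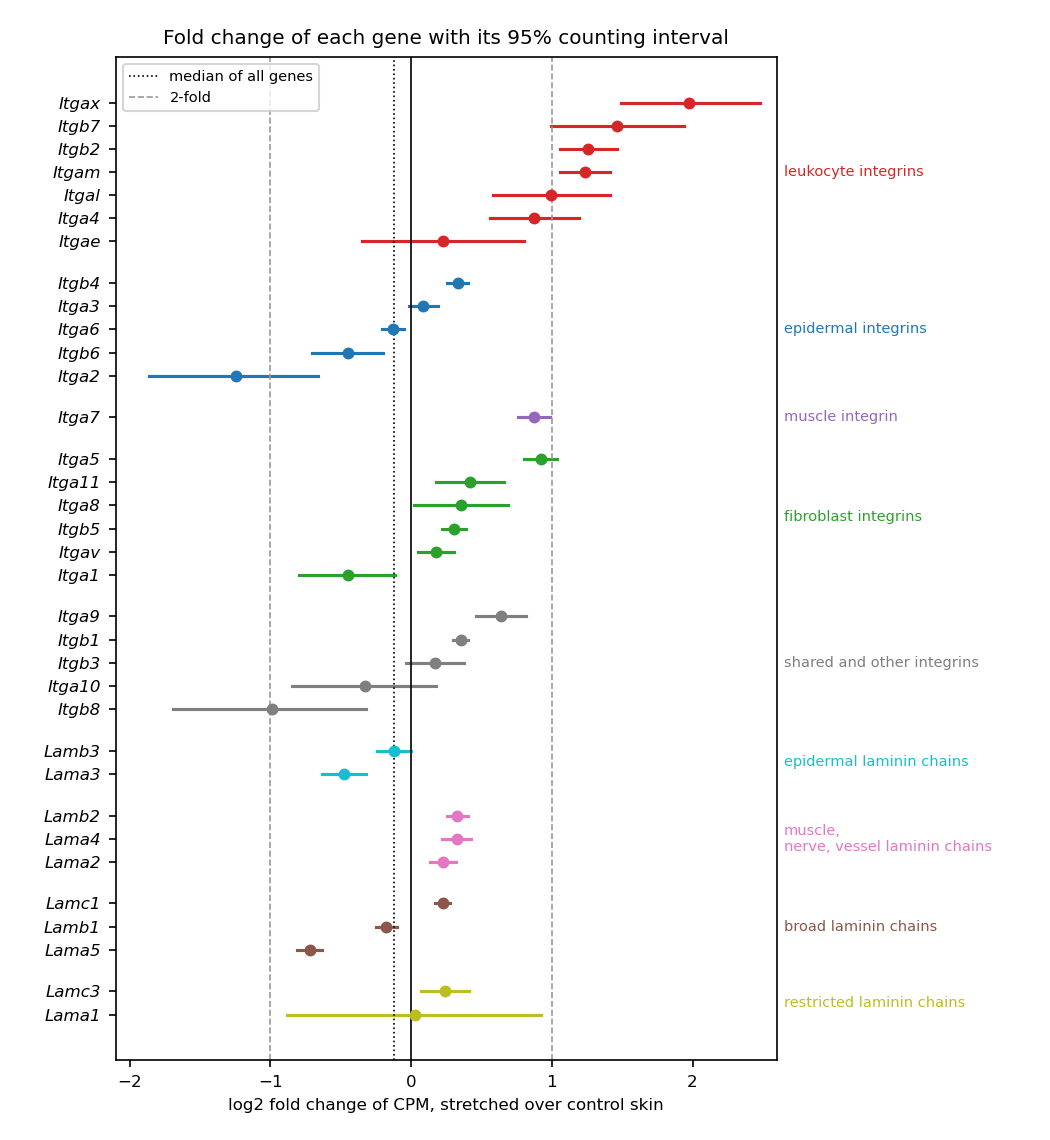
Log2 fold change of CPM in stretched over control skin for 34 of the measured genes, grouped by class, with points for the values and lines for the 95% counting intervals. The solid line marks 0, the dotted line the median of all genes (-0.12) and the dashed lines a 2-fold difference. Of the leukocyte integrins, 6 have intervals wholly above 0, and the widest intervals belong to genes with few counts such as Itgb8 and Lama1.

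The leukocyte integrins on chromosome 7 include a pair of neighbours that were both past 2-fold, Itgam and Itgax. Their promoters are shown because they are the members past 2-fold that lie side by side. The sequences are the 250 bases before the start site on the plus strand, from the RefSeq table for GRCm38.p6 (mm10), at chr7:128062390-128062639 and chr7:128129300-128129549. Capitals mark GAGGAA or its reverse complement TTCCTC, the core of sites that the myeloid factor PU.1 is known to bind, and TGANTCA, the site of AP-1 factors, which reads the same on both strands.
Itgam: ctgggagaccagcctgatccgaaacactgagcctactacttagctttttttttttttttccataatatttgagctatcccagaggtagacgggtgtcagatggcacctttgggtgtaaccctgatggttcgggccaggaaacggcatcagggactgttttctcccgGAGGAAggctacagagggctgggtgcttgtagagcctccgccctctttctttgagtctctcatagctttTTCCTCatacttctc
Itgax: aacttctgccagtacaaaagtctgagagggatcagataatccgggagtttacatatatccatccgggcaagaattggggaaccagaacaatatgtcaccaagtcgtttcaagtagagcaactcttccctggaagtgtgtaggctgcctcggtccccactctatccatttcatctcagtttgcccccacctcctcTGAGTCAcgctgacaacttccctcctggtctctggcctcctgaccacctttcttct
The Itgam promoter held the PU.1 letters at positions -84 and -15 from the start site and again at 33, past the stretch shown. The Itgax promoter held the AP-1 letters at -56 and none of the PU.1 letters. In windows from 250 bases before to 50 after the start, the PU.1 letters were found for 31.3% of 27025 genes and the AP-1 letters for 8.97%. Of the integrin and laminin genes, 22 had such a window, and 13 of these held the PU.1 letters, 2 of the 4 leukocyte integrins with a window among them. The AP-1 letters were found for 3 of the 22 (13.6%). A match of letters is a description of the sequence and not a binding site.

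Of the leukocyte integrins, 7 of 8 could be measured. Their median log2 fold change was 1.24, and all 7 lay above the median of all genes. Itgb2 encodes the beta chain CD18, which the lymphocyte, macrophage and dendritic cell alpha chains share. Its position on chromosome 10 (mm10) is 77530252 to 77565708. Itgb2 had 310 counts in control and 611 in stretched skin, 2.39-fold higher (log2 1.26, interval 1.06 to 1.46). Itgam, the alpha chain CD11b of macrophages, monocytes and neutrophils, lies on chromosome 7 from 128062640 to 128118491. It had 388 counts in control and 752 in stretched skin, 2.35-fold higher (log2 1.24, interval 1.06 to 1.42). The intervals of Itgb2, Itgam and Itgax lay wholly past 2-fold. In the GENCODE annotation 68.7% of the exonic bases of Itgam are shared with Gm49368, a gene that overlaps it, so how reads were assigned between them is uncertain.

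Itgax, the alpha chain CD11c of dendritic cells and some macrophages, lies from 128129547 to 128150657 on the same chromosome. It had the largest value of the 35 genes, with 47 counts in control and 152 in stretched skin, 3.93-fold higher (log2 1.97, interval 1.49 to 2.48). This value lay above those of 98.7% of all genes measured. Itgal, the alpha chain of the lymphocyte receptor LFA-1, had 80 and 131 counts (log2 0.99, interval 0.58 to 1.41) and stood just under 2-fold. With TMM scaling it was past 2-fold at 1.11.

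The integrins of lymphocyte homing and of epithelial T cells were measured on fewer counts. Itgb7, the beta chain that pairs with Itga4 in the gut homing receptor and with Itgae on intraepithelial T cells, lies on chromosome 15 from 102215995 to 102231944. It had 56 counts in control and 127 in stretched skin, 2.76-fold higher (log2 1.46, interval 0.998 to 1.94). Itga4, whose product binds VCAM-1 and fibronectin, had 141 and 213 counts (log2 0.88, interval 0.56 to 1.19). Itgae, the alpha chain CD103, was the one leukocyte integrin whose interval included 0, with 54 counts in control and 52 in stretched skin (log2 0.23, interval -0.35 to 0.80). Both partners of Itgb7 were lower relative to it. Itgae had 0.964 counts per count of Itgb7 in control and 0.409 in stretched skin, a log2 change of -1.24 (interval -1.99 to -0.48), and Itga4 went from 2.52 to 1.68 per count of Itgb7 (-0.59, interval -1.16 to -0.02).

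Ratios of 2 genes within a library do not depend on scaling, and 14 such ratios are given. Their intervals lay above 0 for 7, below 0 for 6 and included 0 for 1, and cover counting error only. Itgax went from 0.121 to 0.202 counts per count of Itgam, a log2 change of 0.74 (interval 0.22 to 1.28). Of the summed FPKM of the 3 measured alpha chains that pair with Itgb2, Itgax had 9.87% in control and 15.7% in stretched skin, while Itgam had 77.9% and 74.4% and Itgal 12.3% and 9.91%. The ratio of Itgam to Itgal was 4.85 in control and 5.74 in stretched skin, not a detectable change at this depth (0.24, interval -0.22 to 0.70). Against the pan-leukocyte gene Ptprc, Itgb2 went from 0.836 to 1.05 (0.33, interval 0.05 to 0.61). Ptprc had the smallest log2 fold change of the 4 general leukocyte genes, at 0.93. Cd53, Laptm5 and Coro1a, at 1.46, 1.49 and 1.33, were higher by more than Itgb2 (1.26). Against Adgre1, which encodes F4/80 of macrophages, Itgam went from 0.822 to 0.655 (-0.33, interval -0.57 to -0.09). The other macrophage genes lay on both sides of Itgam (log2 1.24). Cd68 and Fcgr1 were higher by more (1.47 and 2.68) and Csf1r and Mrc1 by less (1.15 and 0.94).

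**Figure D2:**
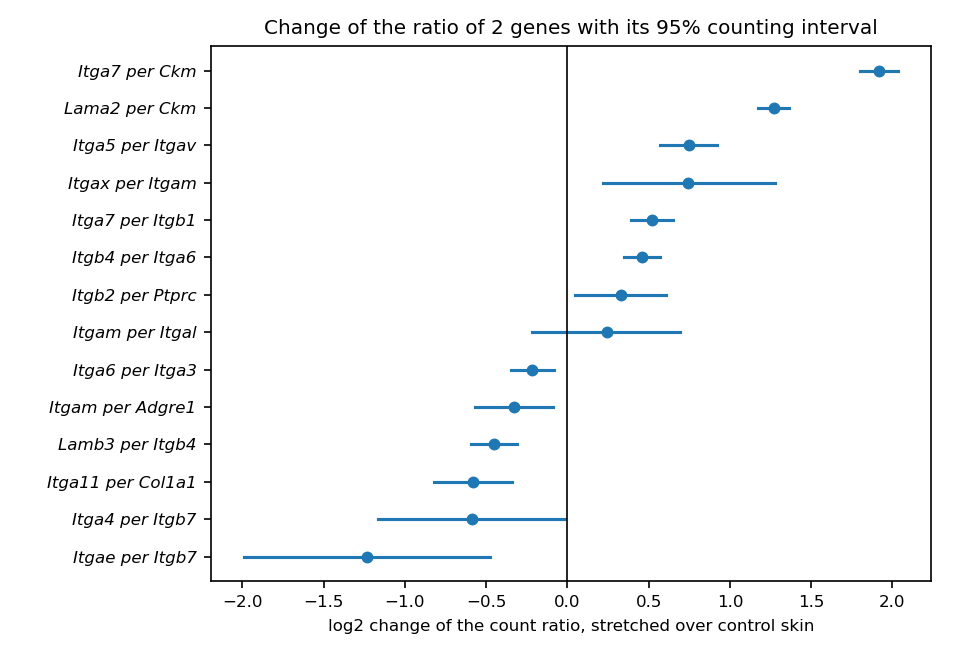
Log2 change, stretched over control skin, of the ratio of counts of 2 genes within a library, for 14 pairs, with points for the values and lines for the exact 95% counting intervals. Itga7 per Ckm has the largest increase (1.92) and Itgae per Itgb7 the largest decrease (-1.24), and the interval of Itgam per Itgal includes 0.

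Markers of leukocytes moved with these integrins. All 4 general leukocyte genes were higher with intervals above 0, and their summed level was 130 CPM in control skin and 333 CPM in stretched skin. The same held for 5 of 5 macrophage genes (301 and 684 CPM) and for the 4 neutrophil genes measured (12.5 and 63.2 CPM), of which Retnlg had 1 count in control skin. Of the T cell genes 4 were measured (7.91 and 13.0 CPM), 1 of them with an interval above 0 (Cd4), and Cd8a had 2 and 3 counts. Of the 5 dendritic and Langerhans cell genes (16.3 and 22.3 CPM), 2 had intervals above 0, Cd207 and Flt3. The part of these cells in the integrin values was not tested, and in bulk samples more cells of a type and more RNA per cell cannot be told apart.

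The single muscle integrin, Itga7, encodes the alpha chain with which muscle fibres hold laminin, and Schwann cells and smooth muscle express it too. It lies on chromosome 10 from 128933818 to 128958282. It had 1007 counts in control and 1518 in stretched skin, 1.83-fold higher (log2 0.87, interval 0.76 to 0.99), above 92.6% of all genes measured. Of the muscle fibre markers, 5 of 5 had intervals below 0, with a median of -0.53 and a summed level of 23722 CPM in control skin and 14171 CPM in stretched skin. Much of the difference in the sum was that of Myh4, a fast myosin heavy chain, with 6432 and 271 CPM. Acta1, the muscle actin, was at -0.072 (interval -0.084 to -0.060), and with TMM at 0.042 (interval 0.030 to 0.054), so that its direction turned. Itga7 went from 0.0198 to 0.0749 counts per count of Ckm, the muscle creatine kinase, a log2 change of 1.92 (interval 1.80 to 2.04). Ckm itself had 50821 counts in control and 20271 in stretched skin (log2 -1.05, interval -1.07 to -1.02). Of the other fibre markers, Mylpf (-0.24), Tnnt3 (-0.53) and Acta1 were lower by less than Ckm and Myh4 (-4.57) by more. All 4 genes of developing muscle were at least 2-fold higher, with a summed level of 43.7 and 1053 CPM, and of the 4 Schwann cell genes (268 and 306 CPM) 2 had intervals above 0 and 2 included 0. Their part in the value of Itga7 was not tested. Itgb1bp2, which encodes the muscle integrin partner melusin and was chosen for mention after its value was seen, had 856 and 1229 counts (log2 0.80, interval 0.68 to 0.93).

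The beta chain that pairs with Itga7, Itgb1, is shared by most alpha chains of skin and had the highest level of the 35 genes, at 98.2 FPKM in control skin and 125 FPKM in stretched skin. It had 5674 and 5958 counts (log2 0.35, interval 0.30 to 0.40). Itga7 went from 0.177 to 0.255 counts per count of Itgb1, a log2 change of 0.52 (interval 0.39 to 0.65). Of the summed FPKM of the 3 alpha chains dedicated to laminin, Itga7 had 16.9% in control and 27.4% in stretched skin. Itga6 went from 44.4% to 36.0% and Itga3 from 38.8% to 36.6%.

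The 6 fibroblast integrins had a median log2 fold change of 0.33, with 5 intervals above 0 and 1 below (18.1% and 33.5% of all genes). Itga5, the alpha chain of the main fibronectin receptor, which vessels and macrophages also make, lies on chromosome 15 from 103344286 to 103366763. It had 968 counts in control and 1510 in stretched skin, 1.90-fold higher (log2 0.92, interval 0.80 to 1.04). With TMM scaling it was just past 2-fold at 1.04. Itgav, the alpha chain of vitronectin receptors and of those that activate latent TGF-beta, had 1003 and 933 counts (log2 0.18, interval 0.05 to 0.31). The ratio of Itga5 to Itgav went from 0.965 to 1.62, a log2 change of 0.75 (interval 0.57 to 0.92). Itgb5, a beta partner of Itgav, had 2251 and 2288 counts (log2 0.30, interval 0.22 to 0.39).

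Of the fibroblast receptors for collagen, Itga11, which binds fibrillar collagen, had 273 counts in control and 301 in stretched skin (log2 0.42, interval 0.18 to 0.66). Its own ligand gene Col1a1 was higher by more, so that the counts of Itga11 per count of Col1a1 were lower in stretched skin (log2 change -0.58, interval -0.82 to -0.34). Itga1, a collagen receptor of smooth muscle, vessels and fibroblasts, had 196 and 118 counts and was the member of the class that was lower (log2 -0.45, interval -0.79 to -0.11). With median of ratios (-0.33, interval -0.67 to 0.0049) and upper quartile its interval included 0. Itga8, which binds nephronectin and marks the arrector pili muscle, had 149 and 157 counts (log2 0.36, interval 0.02 to 0.69). The collagen-binding alpha chains together had 6.59 FPKM in control skin and 6.89 FPKM in stretched skin. Within them Itga11 went from 57.1% to 73.1% and Itga2 from 14.3% to 5.77%. All 5 fibroblast markers had intervals above 0, with a median of 0.25 and a summed level of 26819 and 49616 CPM. Most of that difference was in the collagen genes Col1a1 (11879 and 23813 CPM) and Col1a2 (12955 and 23677 CPM), while Dcn, Lum and Pdgfra were 1.04, 1.19 and 1.13-fold higher. Of the 5 smooth muscle and pericyte genes (515 and 675 CPM), 4 had intervals above 0 and 1 included 0. Of the 4 endothelial genes (152 and 197 CPM), 2 had intervals above 0, 1 included 0 and 1, Kdr, lay below at -0.37 (interval -0.59 to -0.15). The part of these cells was not tested.

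**Figure D3:**
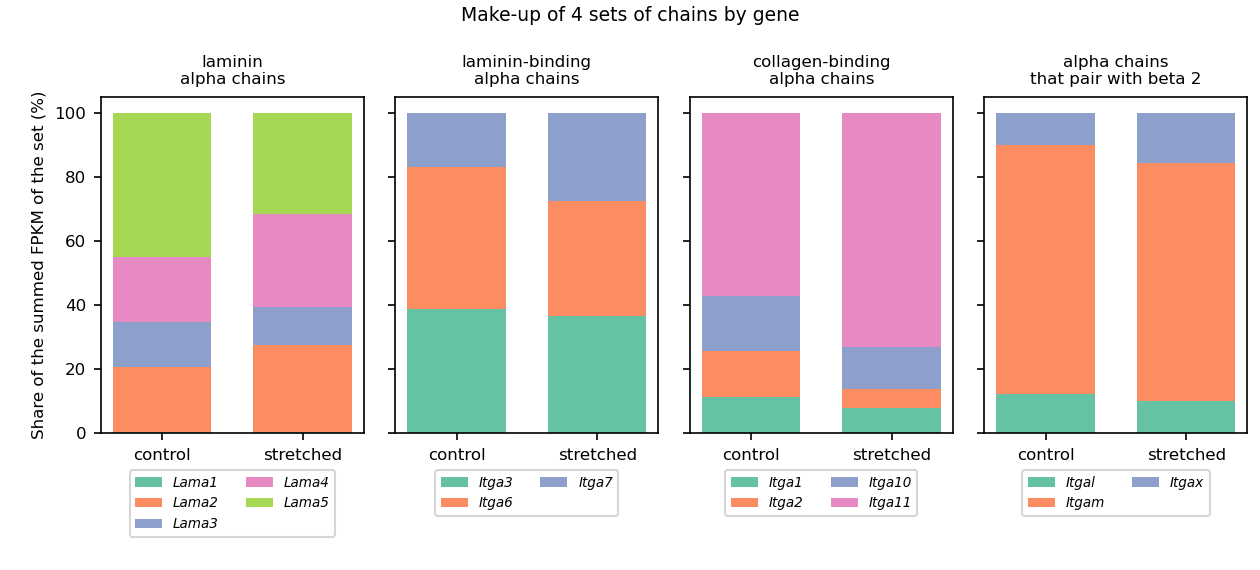
Share of each gene in the summed FPKM of its set (percent, bars stacked from 0 to 100) in control and stretched skin, for laminin alpha chains, laminin-binding, collagen-binding and Itgb2-pairing integrin alpha chains. Lama5 goes from 45.0% to 31.4%, Itga7 from 16.9% to 27.4%, Itga11 from 57.1% to 73.1% and Itgax from 9.87% to 15.7%, and the shares carry no interval.

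The 5 epidermal integrins went both ways around a median of -0.13, close to that of all genes, with 1 interval above 0 and 3 below (18.1% and 33.5% of all genes) and 1 that included 0. The median was -0.02 with TMM scaling and kept its sign with the other scalings. The 2 chains of the hemidesmosome receptor differed. Itgb4, whose long tail binds plectin, had 2832 counts in control and 2933 in stretched skin (log2 0.33, interval 0.26 to 0.41), and Itga6 had 2956 and 2225 (log2 -0.13, interval -0.21 to -0.05). The interval of Itga6 included 0 with each of the 4 other scalings, at -0.015 (interval -0.095 to 0.065) with TMM. Counts of Itgb4 per count of Itga6 went from 0.958 to 1.32, a log2 change of 0.46 (interval 0.35 to 0.57). Itga6 also pairs with Itgb1 and is made by vessels and nerves.

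Itga3, which binds epidermal laminin at the basal surface outside hemidesmosomes, had 1635 and 1430 counts (log2 0.09, interval -0.02 to 0.19). Its interval lay above 0 with each of the 4 other scalings, at 0.20 (interval 0.098 to 0.30) with TMM. Relative to Itga3, Itga6 went from 1.81 to 1.56 (log2 change -0.22, interval -0.35 to -0.09). Itgb6, the epithelial beta partner of Itgav that activates latent TGF-beta, had 348 and 210 counts (log2 -0.45, interval -0.70 to -0.20). Itga2, a collagen receptor of basal keratinocytes that platelets and fibroblasts also carry, lies on chromosome 13 from 114833081 to 114932100. It had 95 counts in control and 33 in stretched skin, 2.37-fold lower (log2 -1.24, interval -1.86 to -0.66). The interval was not wholly past 2-fold, and its level was under 1 FPKM in both libraries. Of the basal keratinocyte markers, 1 had an interval above 0 (Krt14), 2 below (Krt15 and Trp63) and 1 that included 0 (Krt5), with a summed level of 8401 and 8626 CPM. All 3 suprabasal markers had intervals above 0 (7517 and 7901 CPM). Their part in these values was not tested.

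The shared and other integrins beside Itgb1 were of lower level. Itga9, a receptor for tenascin and for VCAM-1 on keratinocytes, smooth muscle and lymphatic vessels, had 472 counts in control and 604 in stretched skin (log2 0.64, interval 0.46 to 0.81). Itgb3, a partner of Itgav on vessels, macrophages and platelets, had 415 and 384 counts (log2 0.17, interval -0.04 to 0.37), and its interval lay above 0 with each of the 4 other scalings. Itgb8, which also activates latent TGF-beta with Itgav, had 65 and 27 counts and stood just inside a 2-fold decrease (log2 -0.99, interval -1.69 to -0.32). Itga10, a collagen receptor best known from cartilage, had 84 and 55 counts (log2 -0.33, interval -0.85 to 0.18), and 33.5% of its exonic bases are shared with Gm42957.

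**Figure D4:**
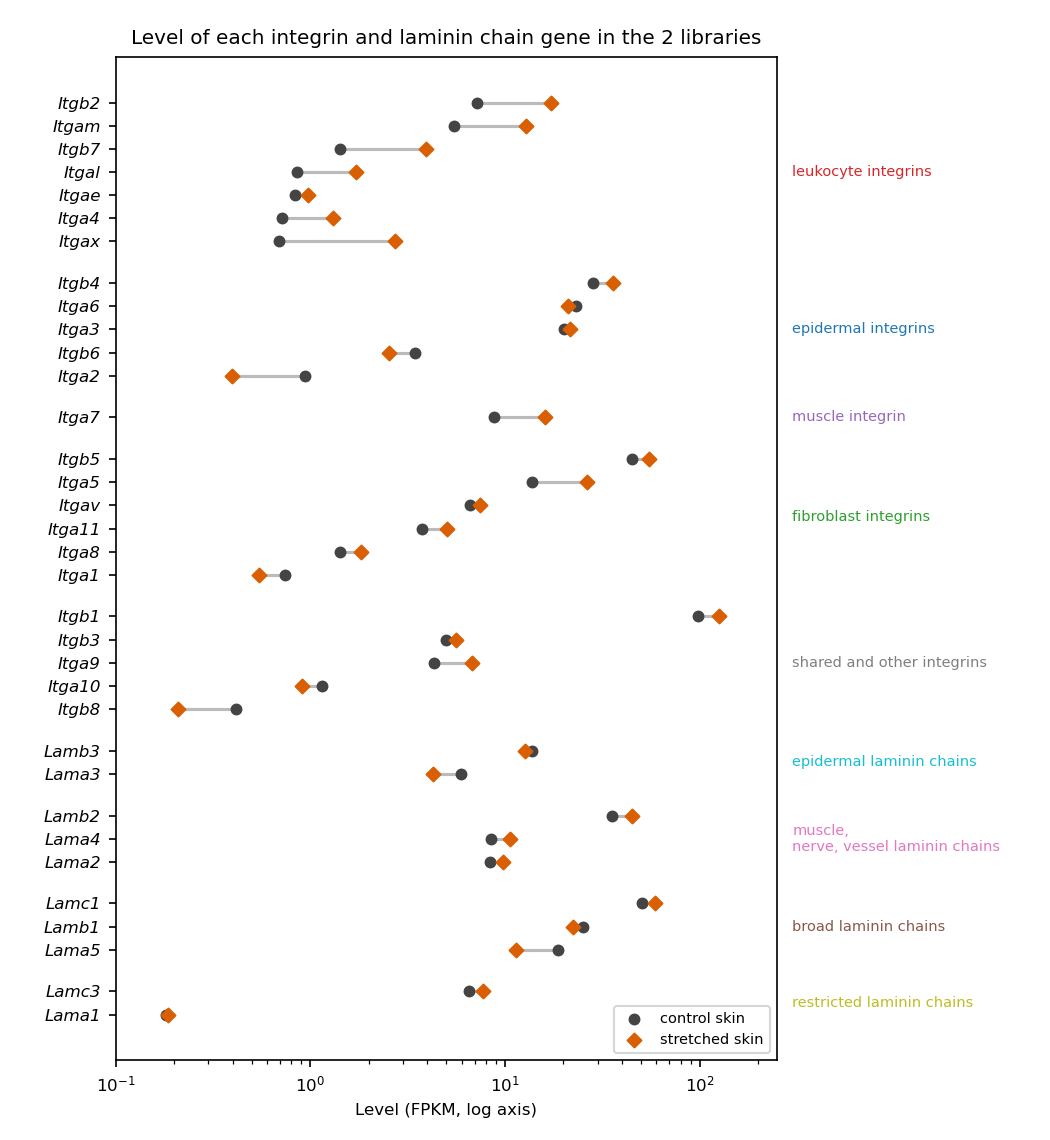
Level in FPKM (log axis) of 34 of the measured genes in control skin (circles) and stretched skin (diamonds), 1 library each, grouped by class and ordered by the level in control skin. Itgb1 is highest at 98.2 and 125 FPKM, Lama1 is lowest at 0.182 and 0.186 FPKM, and Itgax has the longest line.

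The 11 laminin chains differed by less than the integrins, from -0.72 for Lama5 to 0.33 for Lamb2, and 0 of them were past 2-fold in either direction, where 6.32% of all genes were higher and 5.47% lower. Of the chains of the epidermal laminin of the anchoring filaments, the alpha chain, Lama3, had 900 counts in control and 533 in stretched skin (log2 -0.47, interval -0.63 to -0.32). The beta chain, Lamb3, had 1293 and 979 counts (log2 -0.12, interval -0.24 to 0.0005), so that its interval included 0. With TMM scaling Lamb3 was at -0.0067. Lamb3 per count of the receptor gene Itgb4 went from 0.457 to 0.334 (-0.45, interval -0.59 to -0.31).

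The broad laminin chains, found in the basement membranes of epithelia, vessels and fat, went both ways around a median of -0.18. Lama5, the alpha chain of mature epithelial and vascular basement membranes, lies on chromosome 2 from 180176373 to 180225859. It had 3027 counts in control and 1513 in stretched skin, 1.65-fold lower (log2 -0.72, interval -0.81 to -0.63), with 9.90% of all genes measured below it. Lamb1 had 3541 and 2581 counts (log2 -0.18, interval -0.25 to -0.10), and its interval included 0 with TMM (-0.062, interval -0.14 to 0.012), median of ratios and upper quartile. Lamc1, the gamma chain common to most laminins, was the laminin gene of the highest level, at 50.7 and 59.2 FPKM, and had 5936 and 5709 counts (log2 0.22, interval 0.17 to 0.28). Genes of long exon length had lower values in these libraries, with medians of -0.24 to -0.06 in the length bins that hold the 35 genes. A correction for length subtracted the median of genes of similar length less that of all genes. With it Lama5 was at -0.64 and Lamb1 at -0.10.

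All 3 laminin chains of muscle, nerve and vessel had intervals above 0, as 18.1% of all genes did, with a median of 0.32. Lama2, the alpha chain of the muscle fibre and Schwann cell laminin, had 1939 counts in control and 1865 in stretched skin (log2 0.22, interval 0.13 to 0.32). Relative to Ckm, which was itself at -1.05, Lama2 went up by 1.27 on the log2 scale (interval 1.17 to 1.37). Lama4, the alpha chain of vessel, fat and muscle laminin, had 1451 and 1495 counts (log2 0.32, interval 0.22 to 0.43). Lamb2, the beta chain enriched at the neuromuscular synapse and in vessels, had 3074 and 3180 counts (log2 0.33, interval 0.26 to 0.40). The adipocyte markers, 4 of 4, had intervals below 0 (997 and 641 CPM), and their part was not tested. Of the more restricted chains, Lamc3 had 565 and 550 counts (log2 0.24, interval 0.07 to 0.41). Lama1, the alpha chain of embryonic basement membranes, had 25 and 21 counts, not a detectable difference at this depth (log2 0.03, interval -0.88 to 0.93).

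The alpha chains of laminin had a different make-up in the 2 libraries. Lama5 had 45.0% of their summed FPKM in control and 31.4% in stretched skin, while Lama4 had 20.3% and 29.3% and Lama2 had 20.1% and 27.0%. Lama3 went from 14.2% to 11.7%. The summed level of the alpha chains was 41.8 FPKM in control skin and 36.3 FPKM in stretched skin, and that of the beta chains 74.8 and 79.9 FPKM. Among the beta chains Lamb2 went from 47.8% to 56.1%.

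Of the 22 adaptors and activators that link integrins to actin, 12 had intervals above 0 and 3 below, with a median of 0.17, where 18.1% and 33.5% of all genes did. At least 2-fold higher were 2 of them, where 6.32% of all genes were. These were Fermt3, the kindlin of blood cells, with 223 and 382 counts (log2 1.06, interval 0.82 to 1.30), and Parvg, the parvin of leukocytes, with 34 and 66 counts (1.24, interval 0.62 to 1.88). The other kindlins, named after their values were seen, were Fermt1 of epithelia, with 596 and 296 counts (-0.73, interval -0.93 to -0.53), and Fermt2 of other cells, with 1483 and 1177 (-0.05, interval -0.16 to 0.06). Talin, encoded by Tln1, had the most counts of the list, 4428 and 4199 (0.20, interval 0.14 to 0.27).

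Of the 11 measured integrin ligands, 7 had intervals above 0 and 2 below (18.1% and 33.5% of all genes), with a median of 0.50. Spp1, which encodes osteopontin, had 50 counts in control and 265 in stretched skin (log2 2.69, interval 2.25 to 3.15). Tnc, which encodes tenascin C, a ligand of Itga9, had 1456 and 4497 counts (1.91, interval 1.82 to 1.99). Vcam1, the endothelial ligand of Itga4, had 92 and 168 counts (1.15, interval 0.77 to 1.53). Fn1, which encodes fibronectin, the ligand of Itga5, had the most counts, 9473 and 11013 (0.50, interval 0.46 to 0.54).

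Of the 5 hemidesmosome and anchoring genes, 4 had intervals above 0 and 1 below (18.1% and 33.5% of all genes), with values from -0.19 to 0.25. Col17a1, the transmembrane collagen of hemidesmosomes, had 11405 and 10922 counts (log2 0.22, interval 0.18 to 0.26). Of the 7 laminin partners and other laminin receptors, 5 had intervals below 0 and 2 above (33.5% and 18.1% of all genes), with a median of -0.24 beside -0.12 for all genes. Hspg2, which encodes perlecan, had the most counts, 8011 and 7657 (0.22, interval 0.17 to 0.26).

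Of the genes with integrin-like names that the rule on symbols left out, 3 were examined beside those among the adaptors. Itgb2l had 0 counts in both libraries. Itgbl1, which encodes a secreted protein with repeats like those of beta chains and is no receptor chain, had 833 and 2105 counts (log2 1.62, interval 1.502 to 1.74). Itga2b, the alpha chain CD41 of platelets and megakaryocytes, had 127 and 269 counts (1.36, interval 1.05 to 1.68). Other platelet genes had few counts, with 12 and 9 for Gp1ba, 13 and 1 for Gp5, 1 and 0 for Gp9 and 2 and 8 for Ppbp.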

How the data were processed

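Single-end reads of 76 bases were filtered (FASTX-Toolkit) and mapped by TopHat2 to mm10 by the authors, who deposited raw counts per gene symbol, 1 column per library. How reads were counted, on which annotation and with what handling of strand and of reads shared by genes is not given in the sources used here. CPM was computed from the total counts (14152379 in control and 11648655 in stretched skin), and FPKM from the union of exons in GENCODE M21, matched by name for 23376 symbols and by synonym for 684, with 361 unmatched. Counts of 3 or fewer were set to 3 (0.212 and 0.258 CPM). Intervals of ratios of 2 genes are exact conditional intervals. PCR reads are not independent molecules, so all intervals cover counting error only. Genes and lists were chosen with earlier results of these data known. Of the measured members 34 are named, and the remaining gene is not reported here. Partner genes named are those past 2-fold and the one with the most counts in each list, and 3 others chosen after their values were seen (Itgb1bp2, Fermt1 and Fermt2). Overlap was computed from the annotation and from shared stretches of 76 bases. Alternatives were other scalings (edgeR 4.0.16, DESeq2 1.42.0), 1 CPM added, 99% intervals, at least 20 counts, a filter on the product of both FPKM values above 10 (as in the study's methods, and with 1 added to each value), other thresholds and the longest transcript. Intervals were tested on simulated data. Python 3.11.15, scipy 1.17.1 and R 4.3.3 were used.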

Additional observations from a re-analysis of the deposited data

How the results depend on the processing

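No member changed sign under any scaling, with 1 CPM added or with a correction for gene length in 20 bins, which was added after seeing the data. Scaling added 0.11 (TMM), 0.12 (median of ratios), 0.12 (upper quartile) or 0.06 (totals that leave out the top 50 genes) to every value. The epidermal integrin median was then -0.015, -0.0097 and -0.012 under the former 3 scalings in that order, the broad laminin median -0.062, -0.056 and -0.058, and the muscle, nerve and vessel laminin median 0.44, 0.44 and 0.44, each shifted by construction. Itga7 was at 0.99 with both median of ratios and upper quartile. The intervals below 0 numbered 5 with median of ratios and 5 with upper quartile. Of the genes at least 2-fold higher there were 6 with TMM, Itgal and Itga5 added, and 6 with the length correction, Itgal and Itga4 added. That correction put the broad laminin median at -0.10. A product of both FPKM values above 10, added after seeing the data, left 2 genes higher and 0 lower, since Itga2, Itgax and Itgb7 did not pass it, and with 1 added to each value 3 were higher and 0 lower. With the whole interval past 2-fold 0 were lower, and at 1.5-fold 9 were higher and 3 lower. With 99% intervals 19 lay above 0 and 8 below. Shares of all genes were not computed for the other scalings, the length correction or the 99% intervals. Leaving out Itgam and Itga10, which share 10% or more of their exonic bases or stretches with another gene, was added after seeing the data and put the leukocyte median at 1.13 and that of shared and other integrins at 0.26. With the length of the longest transcript 44 of 70 FPKM values moved beyond their counting intervals. No paired analysis was possible because each condition was sequenced in a single library. For the same reason none could be omitted. Lama1, Itgb8, Itga2, Itgae and Itga10 had the widest counting intervals.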
